A study of Homo sapiens with 8 samples.

Results

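The apolipoprotein L (APOL) genes were followed in human intestinal epithelial cells (hIECs) grown as a 2D layer and kept with or without inflammatory cytokines and particulate matter 10 (PM10). The family was taken by gene name and comprised 6 genes, APOL1 to APOL6, of the 60558 genes in the expression files. Of these 6, 5 were above 0 in at least 1 library, and APOL5 was listed at 0 in every library. There were 8 RNA-sequencing libraries in 4 groups of 2, all from hIECs that had been derived from the embryonic stem cell line H9, an established human line. Normal hIECs received neither agent. Inflamed hIECs received interferon gamma (IFNγ) and tumour necrosis factor alpha (TNFα), each at 50 ng/ml for 10 days by the study's methods. Normal hIECs with PM10 and inflamed hIECs with PM10 were also exposed to the particles, at 100 µg/ml for the last 7 days by the methods. The labels give 10 days for all libraries. All groups rest on 1 cell line, and nothing states that replicates came from separate cultures, so the p-values measure only the spread between these libraries, which may be technical.

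The deposited values were FPKM, fragments scaled to transcript length and to the mapped fragments of the library, which are per length and so can be set side by side between genes. Each library had 12678 to 13435 genes at 1 FPKM or more, and its lowest value above 0 lay between 0.164 and 0.228 FPKM. The read depth behind a value is unknown. Mitochondrially encoded genes took 24.2% of the summed FPKM in replicate 2 of normal hIECs and 15.5% to 20.4% in the other 7 libraries, and no APOL call was lost when that library was left out. Of the 10 epithelial and intestinal markers, CDX2, VIL1, MUC2 and CHGA were listed at 0 in all 8 libraries, and the cadherin gene CDH1 was above 0 in 1 library, at 0.221 FPKM. KRT8 and KRT18, genes of simple epithelial keratins, were at 100.1 FPKM or more in every library. All 8 mesenchymal markers, among them VIM, COL1A1 and COL3A1, were above 1 FPKM in every library. Most of the defining markers of the labelled cell type were thus listed at or near 0, which in such a file need not mean absence, and the cells are called hIECs here only as the study names them. In bulk RNA, fewer cells of a type and less RNA per cell cannot be told apart.

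APOL proteins are lipid-binding proteins with membrane-active helices, encoded by a primate gene cluster that arose by duplication, and several of the genes are known to be induced by IFNγ and TNFα. APOL1 is the secreted member: it circulates on high-density lipoprotein (HDL) and lyses African trypanosomes by forming ion channels in their membranes. The other members lack its secretion and act inside the cell. APOL3 breaks the membranes of bacteria in the cytosol together with guanylate-binding proteins and also binds regulators of Golgi phosphoinositides, and APOL6 has been described as a pro-apoptotic protein with a BH3-like motif. APOL2 also carries such a motif. The roles of APOL4 and APOL5 are less well known.

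In GENCODE release 44 (GRCh38), all 6 genes lie on chromosome 22. APOL6 spans 35648446 to 35668404 on the plus strand and APOL5 spans 35717872 to 35729483 on the same strand. The other 4 genes lie together 410.8 kb further on. Of these, APOL3 (36140329 to 36166177), APOL4 (36189124 to 36204840) and APOL2 (36226209 to 36239954) are on the minus strand, and APOL1 (36253071 to 36267530) is on the plus strand, 13.1 kb beyond APOL2. No annotated exon of an APOL gene overlapped an exon of another gene. None of the 100-base windows in their transcripts, the length of 1 sequenced read, was found in a transcript of another gene, and of the 50-base windows between 0% (APOL5) and 5.37% (APOL4) were. The counting did not use strand.

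The first comparison asked how the APOL genes responded to IFNγ and TNFα. In these libraries APOL1, APOL3 and APOL6 were listed at 0 in all 4 libraries without cytokines and lay between 9.79 and 24.0 FPKM in all 4 libraries with them. APOL2 was already measured in normal hIECs and rose by 1.82 on the log2(FPKM + 1) scale, and APOL4 rose by 0.49. Each of the 5 members tested passed the test as higher (limma, Benjamini-Hochberg adjusted p under 0.05), against 25.9% of all 14206 genes tested, and each did so again in the presence of PM10, against 25.8%. APOL1, APOL3 and APOL6 passed the filter on low values, at least 1 FPKM in at least 2 libraries, only through the groups with cytokines, so this count of 5 of 6 members is a description and not support for a family response.

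APOL1 was listed at 0 in both normal and both PM10-exposed normal libraries. In the inflamed libraries it stood at 22.5 and 24.0 FPKM, and in the inflamed libraries with PM10 at 20.1 and 20.5 FPKM. The groups with and without cytokines did not overlap, and no fold is given against a level of 0. By limma on log2(FPKM + 1), the adjusted p of APOL1 was 8.87e-09 without PM10 and 1.03e-08 with PM10. APOL1 passed the filter only through the groups with cytokines and had no spread in the others. These p-values are therefore a description and add no support.

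APOL3 was likewise listed at 0 in all 4 libraries without cytokines. It reached 15.9 and 14.7 FPKM in inflamed hIECs, and 16.4 and 16.7 FPKM when PM10 was present as well. The cytokine difference had a limma adjusted p of 2.29e-08 without PM10 and 1.64e-08 with it. APOL6, the member that lies apart from the others, was listed at 0 in the same 4 libraries. With cytokines it stood at 10.4 and 9.79 FPKM, and with cytokines and PM10 at 10.4 and 10.3 FPKM. Its limma adjusted p was 4.71e-08 without PM10 and 3.43e-08 with PM10. For APOL3 and APOL6 too, these p-values are a description, for the reason given for APOL1.

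APOL2 had the highest level of the family in every library. Both normal libraries were at 14.6 FPKM, and the normal libraries with PM10 were at 17.6 and 18.3 FPKM. Inflamed hIECs had 55.4 and 53.1 FPKM, and inflamed hIECs with PM10 had 52.1 and 52.3 FPKM. The lowest library with cytokines was therefore well above the highest without. The ratio of mean FPKM was 3.71 without PM10, with the 4 pairs of libraries between 3.63 and 3.78, and 2.91 with PM10 (2.85 to 2.98). On the log2(FPKM + 1) scale the rise was 1.82 (SE 0.048, limma adjusted p = 1.66e-07) without PM10 and 1.49 (SE 0.048, adjusted p = 3.45e-07) with PM10.

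APOL4 was the least abundant member that was measured in all groups. The normal libraries were at 3.22 and 2.68 FPKM and the inflamed libraries at 4.63 and 4.41 FPKM. With PM10 the corresponding levels were 1.63 and 1.48 FPKM in normal hIECs and 2.39 and 2.31 FPKM in inflamed hIECs. APOL4 was thus higher with cytokines at either PM10 condition and lower with PM10 at either cytokine condition. The cytokine ratio of mean FPKM was 1.53 without PM10 (pairs between 1.37 and 1.73) and 1.51 with PM10 (1.42 to 1.62). On the log2 scale the rise was 0.49 (95% interval 0.28 to 0.69, limma adjusted p = 0.00266) without PM10 and 0.39 (0.18 to 0.60, adjusted p = 0.0060) with PM10. The median difference over all genes was -0.03 without PM10 and -0.11 with PM10, so the changes relative to that median are slightly larger than the values given.

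**Figure D1:**
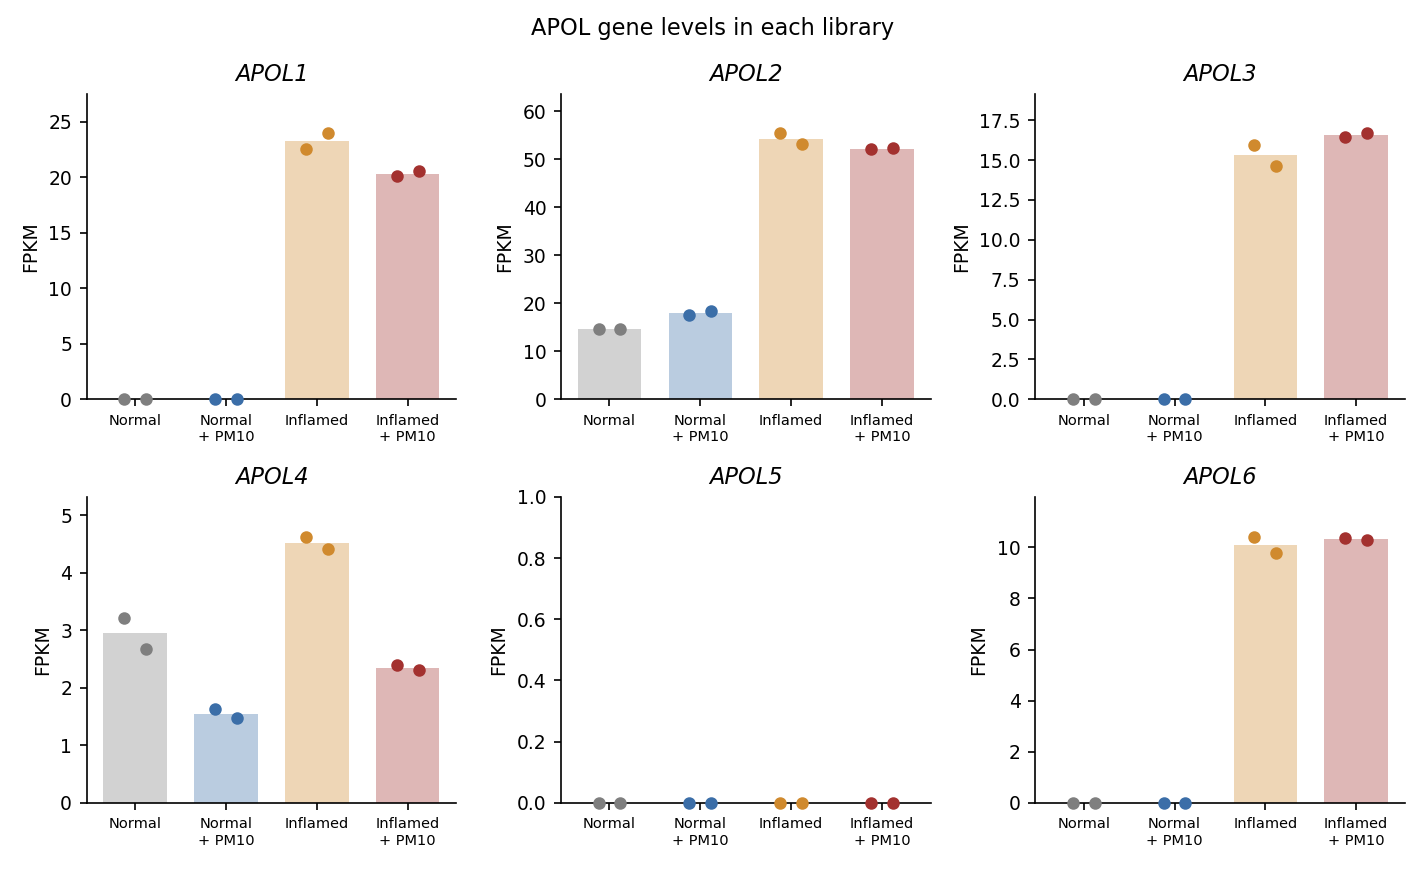
Level of each APOL gene in FPKM (y axis, a scale of its own in each panel, starting at 0) in the 4 groups. Each point is 1 library and each bar the mean of 2 libraries. APOL1, APOL3 and APOL6 are listed at 0 in the 4 libraries without cytokines, APOL2 is highest in the 4 libraries with cytokines, APOL4 is lower with PM10 in both normal and inflamed hIECs, and APOL5 is listed at 0 throughout.

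A value listed at 0 in a file of this kind can be a failed estimate. Among 81 cytosolic ribosomal protein genes, 4 were listed at 0, each of them in all 8 libraries, and among 64 proteasome, RNA polymerase II and eIF3 genes, 2 were, again in all libraries. No gene of these sets was at 0 in some libraries and above 0 in others. The sets were taken by the form of the gene name, which also admits paralogues such as RPL39L that not every cell need use. A 0 in them can thus be real absence, and these counts do not settle what a 0 of an APOL gene means. APOL1, APOL3 and APOL6 shared their pattern of 0 in all 4 libraries without cytokines and a value above 0 in all 4 with them with 166 genes in total, of which 112 were protein coding. Ordered by mean FPKM with cytokines, APOL1 was number 5 of the 166 at 21.8 FPKM, APOL3 was number 9 at 15.9 FPKM and APOL6 was number 14 at 10.2 FPKM.

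The summed level of the family showed the same shift. Without cytokines it was 17.9 and 17.3 FPKM, and with PM10 alone 19.2 and 19.8 FPKM. In inflamed hIECs it was 109 and 106 FPKM, and in inflamed hIECs with PM10 it was 101 and 102 FPKM. The make-up changed as well: 2 members contributed without cytokines and 5 with them. APOL2 made up 82.0% and 84.5% of the sum in normal hIECs and 50.9% and 50.2% in inflamed hIECs. The share of APOL4 was 18.0% and 15.5% in normal hIECs and 4.25% and 4.16% in inflamed hIECs, although its own level was higher there. In the 4 libraries with cytokines APOL1 made up 19.8% to 22.6%, APOL3 13.8% to 16.3% and APOL6 9.24% to 10.2% of the family.

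**Figure D2:**
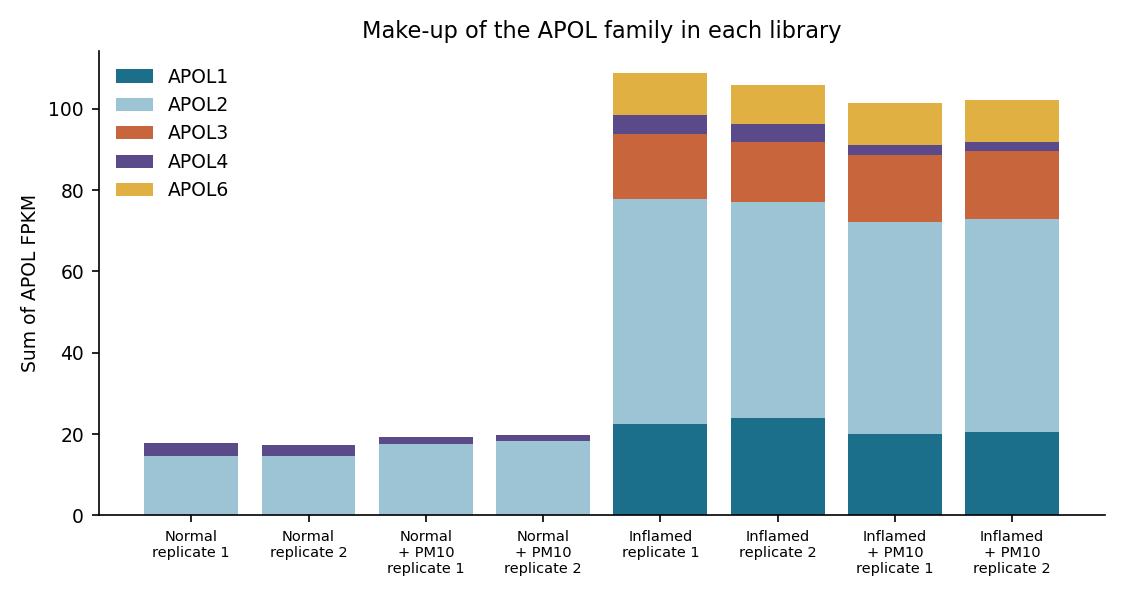
Sum of the APOL genes in FPKM (y axis) in each of the 8 libraries (x axis), stacked by member; APOL5 is at 0 and is not drawn. The bars stand between 17.3 and 19.8 FPKM without cytokines, with APOL2 and APOL4 alone, and between 101 and 109 FPKM with cytokines, with 5 members.

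Some of the marker lists also moved with the cytokines. The summed level of the 10 epithelial markers was 600.3 to 653 FPKM in the 4 libraries without cytokines and 295 to 357 FPKM in the 4 with them. KRT8 and KRT18 made up nearly all of this sum, and LGR5 of the same list went the other way, from between 2.01 and 2.63 FPKM to between 5.26 and 8.28 FPKM. The 8 mesenchymal markers summed to 3118 to 3505 FPKM without cytokines and to 2581 to 3321 FPKM with them. These ranges overlapped, and single markers went both ways between normal and inflamed hIECs. LUM went from 37.9 and 39.9 FPKM to 98.1 and 97.1 FPKM, and COL3A1 from 1034 and 1014 FPKM to 706 and 709 FPKM. The 8 endothelial markers summed to between 29.1 and 31.7 FPKM without cytokines and to between 12.1 and 12.7 FPKM with them. This sum was nearly all EGFL7, TIE1 and TEK were at 0.486 FPKM or less, and PECAM1, CDH5, VWF, KDR and CLDN5 were listed at 0 in every library. Leukocyte markers summed to at most 3.87 FPKM, with CD14, CSF1R, ITGAM and CD3E listed at 0 in every library and PTPRC at 0 in the 4 libraries with cytokines. For hepatocytes, the main source of APOL1 in the circulation, ALB, APOA1 and TTR were at 0 throughout, and the 8 markers summed to at most 0.22 FPKM. Podocytes are another cell type in which APOL1 is studied: their 5 markers summed to 37.2 to 46.4 FPKM without cytokines and to 34.2 to 36.6 FPKM with them, and the defining markers NPHS1 and PODXL were at 0 in every library. The part of these shifts in the APOL levels was not tested.

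The next comparison asked what PM10 did to the APOL genes of normal hIECs. In these cells 2 of the 5 members tested passed the test, 1 in each direction, against 9.23% of all genes tested (5.51% higher and 3.72% lower). APOL2 rose by 0.28 on the log2(FPKM + 1) scale (95% interval 0.16 to 0.39, limma adjusted p = 0.0184), a ratio of mean FPKM of 1.22 with the pairs of libraries between 1.20 and 1.25. APOL4 fell by 0.63 (log2 difference -0.83 to -0.42, adjusted p = 0.00952), a ratio of 0.527 with the pairs between 0.459 and 0.609. The median difference over all genes was 0.06 in this comparison. With median centring the differences were 0.22 for APOL2 and -0.68 for APOL4. With quantile normalization they were 0.21 and -0.67, and both genes stayed called under either scaling. For both genes the PM10 and control libraries did not overlap. With 2 libraries a side this is easily met, and its share over all genes was not counted. APOL4 ranked 206 from the lowest among all genes tested. APOL1, APOL3 and APOL6 stayed listed at 0 with PM10 alone. Both calls were lost when only these 2 groups entered the fit (adjusted p = 0.137 for APOL2 and 0.112 for APOL4). They were also lost without PM10 replicate 1 (0.0796 and 0.0555) or without PM10 replicate 2 (0.108 and 0.0697), while the differences kept their direction.

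In inflamed hIECs, PM10 lowered APOL4 and no other member passed the test, against 15.2% of all genes tested (6.22% higher and 9.02% lower). APOL4 went from 4.63 and 4.41 FPKM to 2.39 and 2.31 FPKM and fell by 0.72 on the log2(FPKM + 1) scale (log2 difference -0.93 to -0.51, limma adjusted p = 0.0030). Its ratio of mean FPKM was 0.520, with the pairs of libraries between 0.499 and 0.542, and it ranked 237 from the lowest among the genes tested. APOL1 was at 22.5 and 24.0 FPKM without and at 20.1 and 20.5 FPKM with PM10. The difference of -0.18 (95% interval -0.34 to -0.03) did not pass the test over all genes (limma adjusted p = 0.102). For APOL2 the PM10 difference in inflamed hIECs was -0.05 (-0.17 to 0.06, adjusted p = 0.475), for APOL3 it was 0.11 (-0.06 to 0.27, adjusted p = 0.334) and for APOL6 it was 0.03 (-0.14 to 0.20, adjusted p = 0.809). The interval of each of these 3 genes contained 0. The bound farthest from 0 among them was 0.27, for APOL3. The fit shared the spread over all 4 groups, and APOL1, APOL3 and APOL6 had none in the normal groups, where they were at 0. Their intervals may therefore be too narrow and set no firm limit on a PM10 difference.

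**Figure D3:**
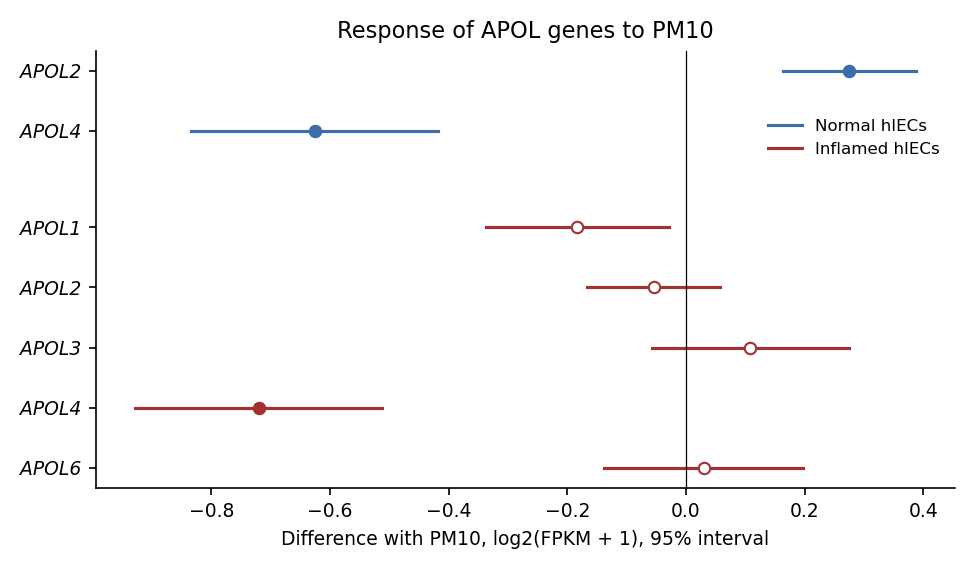
Difference between libraries with and without PM10 on the log2(FPKM + 1) scale (x axis), with the 95% interval of the limma fit, in normal hIECs (blue) and inflamed hIECs (red). Filled points passed the test over all genes and open points did not. The intervals of APOL1, APOL3 and APOL6 may be too narrow, because the fit included normal groups at 0 without spread. APOL4 lies at -0.63 and -0.72; APOL2 lies at 0.28 in normal and at -0.05 in inflamed hIECs; APOL1, APOL3 and APOL6 are drawn only for inflamed hIECs because they were listed at 0 otherwise.

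The mesenchymal markers were lower with PM10 in inflamed hIECs, at 2581 to 2628 FPKM against 3291 to 3321 FPKM in sum, although LUM of that list was higher, at 140.5 and 139 FPKM against 98.1 and 97.1 FPKM. In normal hIECs they summed to 3118 to 3120 FPKM with PM10 and to 3404 to 3505 FPKM without. The epithelial markers of inflamed hIECs summed to between 352 and 357 FPKM without PM10 and to between 295 and 313 FPKM with it, again nearly all KRT8 and KRT18, while LGR5 was at 5.68 and 5.26 FPKM without and 8.28 and 7.92 FPKM with PM10. Their part in the lower level of APOL4 was not tested.

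Whether PM10 acted differently in normal and inflamed hIECs was tested as the PM10 difference in inflamed hIECs minus that in normal hIECs. APOL2 passed this test: its PM10 difference was lower in inflamed than in normal hIECs, with a log2 value of -0.33 (95% interval -0.49 to -0.17, SE 0.068, limma adjusted p = 0.0341), against 6.6% of all genes tested, 4.48% in this direction. This call was lost under 10 of the 17 alternatives, where the adjusted p ran from 0.0283 to 0.126, while the difference stayed between -0.36 and -0.28. It was lost with either library of PM10-exposed normal, inflamed or PM10-exposed inflamed hIECs left out, with the adjusted p between 0.0889 and 0.126. For APOL4, whose levels with PM10 were 0.527 and 0.520 of those without, the difference between the PM10 differences was -0.09 (-0.39 to 0.20, adjusted p = 0.705). APOL1, APOL3 and APOL6 were at 0 on the normal side, so for them this test held no more than their PM10 difference in inflamed hIECs.

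The order of the levels differed between members. For APOL2 the order was inflamed, inflamed with PM10, normal with PM10 and normal hIECs. The difference between the inflamed groups with and without PM10 did not pass the test. The other neighbours passed it, the normal groups with the losses of the call given above. APOL1 was highest in inflamed hIECs, and APOL3 and APOL6 in inflamed hIECs with PM10, but for none of the 3 did the inflamed groups differ past the threshold. APOL4 alone had its second highest level in normal hIECs, above inflamed hIECs with PM10. That last pair was compared after the levels had been seen. Under both agents APOL4 was below its level in normal hIECs, with a log2 difference of -0.23 (95% interval -0.44 to -0.03, limma adjusted p = 0.0489, against 35.9% of all genes called lower in that comparison), a ratio of mean FPKM of 0.797.

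Within a library the order was the same wherever the cytokines were present: APOL2, then APOL1, APOL3, APOL6 and APOL4, and APOL5 at 0. Without cytokines it was APOL2 and then APOL4, with the rest at 0. Over the 4 libraries with cytokines the FPKM ranges of APOL1, APOL3 and APOL6 did not overlap with each other.

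The genes most like each member were taken by Pearson's r of log2(FPKM + 1) over the 8 libraries, among 13250 genes with a mean of at least 1 FPKM. The libraries fall into those with and those without cytokines, so these correlations mostly express that split and are a description. For APOL1 the nearest genes were IL15RA, the receptor chain that binds interleukin 15, GBP4, a guanylate-binding protein, and OAS3, an antiviral oligoadenylate synthetase, each with r = 0.9998. APOL3 and APOL6 were each among the nearest genes of the other (r = 0.9999). Beside APOL6, the nearest of APOL3 were OR2I1P, whose locus overlaps other genes so that its reads are uncertain, and CXCL11, a chemokine. For APOL6 they were OAS2 and FDCSP beside APOL3. APOL2 was nearest to GBP2 (r = 0.9997), PATL1, a messenger RNA decay factor (r = 0.9994), and NFKB1, an NF-κB subunit (r = 0.999). GBP2 stood at 8.96 and 8.75 FPKM in normal hIECs, 10.8 and 10.9 FPKM with PM10, 33.4 and 32.9 FPKM in inflamed hIECs and 31.1 and 31.3 FPKM in inflamed hIECs with PM10, the same order as APOL2.

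APOL4 had other neighbours. They included NMT2, an N-myristoyltransferase (r = 0.9898), and RPL39L, a ribosomal protein paralogue (r = 0.9826). NMT2 was at 6.72 and 6.45 FPKM in normal hIECs, 5.53 and 5.18 FPKM with PM10, 7.55 and 7.63 FPKM in inflamed hIECs and 6.11 and 6.28 FPKM in inflamed hIECs with PM10. RPL39L was at 20.2 and 17.5 FPKM, 14.2 and 13.5 FPKM, 27.3 and 23.6 FPKM, and 17.7 and 18.0 FPKM in the same groups. Both genes were, as APOL4 was, highest in inflamed hIECs and lowest in normal hIECs with PM10.

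The genes that carry the IFNγ and TNFα signals were set beside the family in the comparison of inflamed with normal hIECs. Of 15 genes of IFNγ signalling and of interferon regulatory factors (IRF), all tested, 10 were called higher and 3 lower, with a median log2 difference of 0.71 against -0.03 over all genes, of which 25.9% were called higher and 30.3% lower. IRF1, a transcription factor induced by IFNγ, had a mean of 3.65 FPKM in normal and 81.2 FPKM in inflamed hIECs (limma adjusted p = 1.66e-07). IRF8 (0.818 to 24.3 FPKM), the feedback inhibitor SOCS1 (1.76 to 6.63 FPKM) and IRF7 (1.34 to 4.84 FPKM) also rose. The 3 called lower, named after their values were seen, were SOCS3, also a feedback inhibitor (18.9 to 10.1 FPKM), STAT3 (40.2 to 33.8 FPKM) and IFNGR2 (23.3 to 19.2 FPKM). Of 12 TNF and NF-κB signalling genes tested of 13, 10 were called higher and none lower, with a median of 1.36. IRF8 of the first list and BIRC3 and TRAF1 of this one passed the filter on low values only through the groups with cytokines. The counts for both lists are therefore a description. The inhibitors TNFAIP3 (4.10 to 30.5 FPKM) and NFKBIA (16.8 to 74.8 FPKM) and the subunits NFKB1 (5.46 to 22.1 FPKM) and RELB (5.62 to 20.2 FPKM) rose. BIRC3, an inhibitor of apoptosis, was listed at 0 in normal hIECs and had a mean of 3.99 FPKM in inflamed hIECs.

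Of 18 interferon-induced genes of defence inside the cell, to which APOL3 is functionally close, 17 had a row and 13 were tested, and all of these 13 were called higher, with a median of 1.79. As for the APOL genes, some passed the filter only through the groups with cytokines, so the count is a description. GBP5 and GBP4, like APOL1, APOL3 and APOL6, were listed at 0 without cytokines and had means of 128 and 17.3 FPKM in inflamed hIECs. GBP1 (20.9 to 252 FPKM), TRIM22 (5.84 to 50.9 FPKM) and GBP3 (2.70 to 18.3 FPKM) rose from levels above 0. NOS2 and GBP7 were at 0 in every library.

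The other genes listed as apolipoproteins mostly went the other way. Of 19 in the list, 11 were listed at 0 in all libraries, among them APOA1, APOA2 and APOB, and 7 were tested. Of these 7, 6 were called lower with cytokines and 1 higher, with a median log2 difference of -1.06, against 30.3% lower and 25.9% higher over all genes tested. APOE had a mean of 349.9 FPKM in normal and 90.1 FPKM in inflamed hIECs (limma adjusted p = 5.34e-07), and CLU, clusterin, had 79.7 and 12.5 FPKM. APOD (5.46 to 0.685 FPKM), APOC1 (2.55 to 0.709 FPKM) and APOM (1.60 to 0.650 FPKM) also fell. APOD, APOC1 and APOM passed the filter on low values only through the groups without cytokines, so the counts for this list are a description. APOOL, which was called higher, and APOO, which was called lower (24.1 to 21.4 FPKM), are named after their values were seen. APOOL is a mitochondrial membrane protein in spite of its symbol, so the list is not a single functional class. Between the groups with PM10, APOM and APOO did not pass the test (limma adjusted p = 0.108 and 0.414).

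APOL1 circulates on HDL particles with haptoglobin-related protein, and the genes of that particle were examined next. Of 12 genes of HDL and the trypanolytic particle, 6 were listed at 0 in all libraries, among them HP and HPR, the haptoglobin genes. Of the 6 tested, 2 were called higher and 4 lower in inflamed hIECs, with a median of -0.29, beside 25.9% higher and 30.3% lower over all genes tested. PLTP, the phospholipid transfer protein, fell from a mean of 67.0 to 37.8 FPKM, and the HDL receptor SCARB1 (5.03 to 3.34 FPKM), the lipid exporter ABCA1 (1.04 to 0.659 FPKM) and the cholesterol esterifying enzyme LCAT (10.7 to 8.69 FPKM) fell less. PON2, a paraoxonase, rose from 16.8 to 29.6 FPKM. LIPG, the other gene called higher and named after its values were seen, passed the filter on low values only through the groups with cytokines. ABCA1 passed it only through those without, so the counts for this list are a description.

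Among the intracellular partners of the family the calls were near the background of all genes. Of 12 APOL partner and Golgi phosphoinositide genes 11 were tested, of which 2 were called higher and 4 lower, with a median of -0.19, beside 25.9% and 30.3% of all genes tested. PI4KA, a phosphatidylinositol 4-kinase, fell by 0.31 on the log2 scale (limma adjusted p = 0.00307) and PHB2, a prohibitin of the mitochondrial inner membrane, fell by 0.27. ARF1, a Golgi GTPase, fell by 0.24 and NCS1, a calcium sensor to which APOL3 binds, fell by 0.20, while VAPB, a tether of the endoplasmic reticulum, rose by 0.24.

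Around the cluster the change was not shared by every gene. From RASD2 to MYH9, which flank the APOL genes, 27 genes were listed, 11 were above 0 in at least 1 library and 9 reached 1 FPKM. RBFOX2, a splicing factor that lies between APOL5 and APOL3, had a mean of 25.6 FPKM in the 4 libraries without and 27.4 FPKM in the 4 with cytokines. MYH9, the non-muscle myosin gene next to APOL1, rose from a mean of 80.8 to 137 FPKM between normal and inflamed hIECs (limma adjusted p = 1.99e-05), a log2 difference of 0.76 beside 1.82 for APOL2. On the APOL6 side RASD2, a small GTPase, fell from 1.29 to 0.255 FPKM (adjusted p = 0.00119), and MB, the myoglobin gene, was at 0.319 and 0.267 FPKM in normal hIECs and listed at 0 in the other 6 libraries. Of the 13 genes listed around the cluster 11 were tested, and 2 were called higher and 3 lower, with a median of -0.12, beside 25.9% and 30.3% of all genes tested. MCM5 (10.1 to 13.3 FPKM) was the other gene called higher, and HMOX1 (6.46 to 4.84 FPKM) and IFT27 (16.7 to 12.6 FPKM) were called lower. RASD2 passed the filter on low values only through normal hIECs, so the counts for this list are a description.

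**Figure D4:**
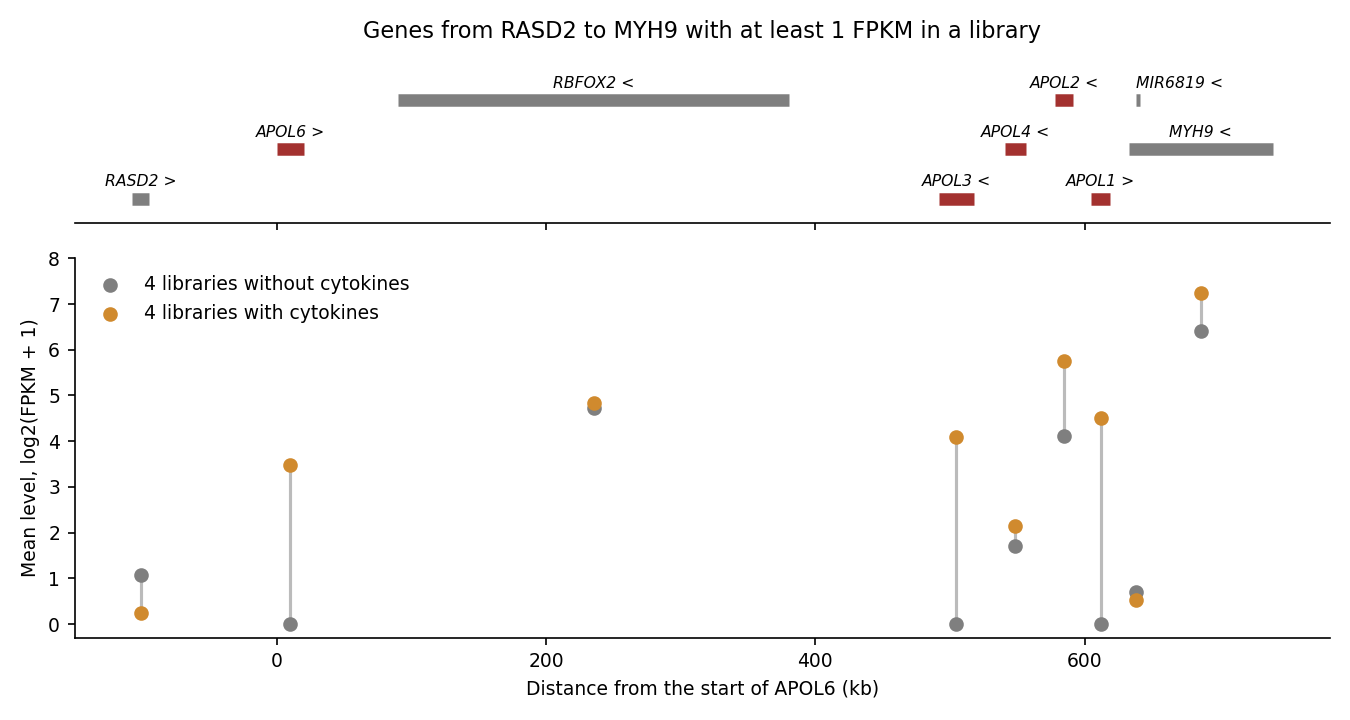
The 9 genes from RASD2 to MYH9 with at least 1 FPKM in a library, drawn to scale by their distance from the start of APOL6 (x axis, kb; APOL genes in red, arrows for the strand), above their mean level on the log2(FPKM + 1) scale (y axis) in the 4 libraries without cytokines (grey) and the 4 with them (orange). APOL6, APOL3 and APOL1 start at 0, while RBFOX2 lies at 25.6 and 27.4 FPKM in these sets.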

How the data were processed

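RNA of H9-derived 2D hIECs (RNA integrity number above 7.5) was made into non-stranded Illumina TruSeq libraries and sequenced as paired reads of 100 bases. The authors trimmed reads with Cutadapt 3.7 and Sickle 1.33 (Phred 20, reads under 50 bases dropped), mapped them to GRCh38 with HISAT2 2.2.1 and deposited 1 FPKM value per gene and library from StringTie 2.2.0; the annotation release is not given in the sources used here, and 99.51% of the gene identifiers were found in GENCODE 44. Groups came from the sample labels. FPKM are not counts, so read depth is unknown and no count test was used. After a filter that kept genes reaching 1 FPKM in 2 or more libraries (14206), log2(FPKM + 1) was fitted with limma 3.58.1 (R 4.3.3), trend on, with all 8 libraries and 4 groups in 1 fit and no replicate block; p-values were adjusted by Benjamini-Hochberg over all genes tested and called under 0.05. The test was checked on simulated data. The comparisons were cytokines with and without PM10, PM10 in normal and in inflamed hIECs, and their interaction. Alternatives varied the pseudocount, the filter, scaling, the samples in the fit, the trend, a replicate block and each library in turn. The members and gene lists were chosen with earlier results of these data known. Beside the 6 APOL genes, text names up to 5 members of each list, those with the largest log2 change with cytokines among members called there with a mean of at least 1 FPKM, the 2 nearest neighbours on each side of the cluster, and the 3 genes most correlated with each member; a few genes that this rule or the marker lists give are not reported here. A search for motifs in APOL promoters was not run. Python 3.11.15 and pandas 2.3.3 were used for tables, and matplotlib 3.10.9 for plots.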

Additional observations from a re-analysis of the deposited data

Results flagged for a closer look

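The PM10 difference in inflamed hIECs minus that in normal hIECs, tested with limma and adjusted over all 14206 genes, passed the threshold for APOL2, with a log2 value of -0.33 (adjusted p = 0.0341). The gene was at 14.6 FPKM in both normal libraries, 17.6 and 18.3 FPKM with PM10, 55.4 and 53.1 FPKM with cytokines, and 52.1 and 52.3 FPKM with both. This call was lost under 10 of 17 alternatives, with the replicate block among them (adjusted p = 0.0541). HMOX1, the heme oxygenase gene near the cluster, had a value of -0.56 (adjusted p = 0.0323), with means of 6.46 and 10.2 FPKM without and with PM10 in normal hIECs and of 4.84 and 4.96 FPKM in inflamed hIECs. GBP2 (-0.35, adjusted p = 0.0277), UBE2L6 (-0.29, adjusted p = 0.0412) and TNFRSF1A (-0.37, adjusted p = 0.0298) of the gene lists also passed. They are named after their values were seen, and 6.6% of all genes tested passed. For BIRC3 the value was 0.51 (adjusted p = 0.0399), but it was listed at 0 in all 4 libraries without cytokines, so the value is only its PM10 difference in inflamed hIECs, from a mean of 3.99 to 6.09 FPKM, and shows no unequal effect. With 2 libraries a group no test for a single outlying library was made.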

How the results depend on the processing

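The count of APOL genes called with cytokines, with or without PM10, and with PM10 in inflamed hIECs stayed within 1.5 times its value under all 18 alternatives. With PM10 in normal hIECs it went from 2 to 0 in a fit to these 2 groups alone, and ranged from 0 to 2 when 1 library was left out. For the interaction it went from 1 to 0 with median centring, quantile normalization, no trend, and the replicate block, and ranged from 0 to 1 when 1 library was left out; the cause was not tested. The block gave APOL2 an interaction adjusted p of 0.0541. Same-numbered libraries did not deviate together (r between -0.0015 and 0.0793, all under 0.1). No pairing by number was thus seen, although this cannot exclude that they shared a culture or a run. Of 445 fold changes of single members under alternatives, 425 were counted as unchanged in direction and side of the threshold, 16 lost the call and 4 turned: APOL6 with PM10 in inflamed hIECs and in the interaction, both to -0.0108 without inflamed replicate 2 (-0.0108 to 0.0702 over the libraries left out), and the interaction of APOL4, to 0.0103 with quantile normalization and to 0.0059 without normal replicate 2 (-0.194 to 0.0059 over the libraries left out). The 425 include APOL1, APOL3 and APOL6 with PM10 in normal hIECs, under 18 alternatives each. Both groups were listed at 0 there, so these had no direction to keep and do not bear on stability. APOL4 with PM10 in inflamed hIECs was called under all 18 (-0.91 to -0.66, adjusted p 0.00178 to 0.0300). Of 623 counts over the gene lists 143 moved by over 1.5 times. Where 1 library of a group was left out, the lone one is assumed to vary like the other groups. Depth could not be recovered, so no limit is given for values at 0.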

Other observations

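Members of the interferon-induced defence list responded to PM10 within inflamed hIECs, where 4 of the 13 tested were called lower and none higher, against 9.02% of all genes called lower. These 4, named after their values were seen, were IFITM1, IFITM3, ISG15 and UBE2L6. IFITM1, a membrane protein that blocks virus entry, had a mean of 491 FPKM in inflamed hIECs and 295 FPKM in inflamed hIECs with PM10 (limma adjusted p = 0.00292). GBP1 and GBP5 did not pass the test there, with log2 differences of -0.10 and -0.07 beside -0.18 for APOL1 and -0.05 for APOL2. With PM10 in normal hIECs the same list went the other way: 5 of the 13 tested were called higher and none lower, against 5.51% of all genes called higher. In the TNF list 2 of 12 genes rose with PM10 in inflamed hIECs, against 6.22% of all genes called higher: TNFAIP3 from a mean of 30.5 to 40.0 FPKM (adjusted p = 0.0112) and BIRC3 from 3.99 to 6.09 FPKM (adjusted p = 0.00709).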
